A study of Mus musculus with 2 samples.

Results

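The Mir30 family was measured in the livers of newborn mice, as the genes Mir30a, Mir30b, Mir30c-1, Mir30c-2, Mir30d and Mir30e. The members were chosen by their names in the GENCODE annotation of the mm10 assembly, and all 6 were found among the 1973 microRNA genes of the deposited tables. The data were microRNA-seq libraries made from total RNA, with inserts below 30 bases, of 2 livers from B6NCrl mice taken on postnatal day 0. Replicate 1 was the liver of pup 1 and replicate 2 that of pup 2, both from the same pregnant female, with sex not recorded. The labels name no treatment or engineered allele, and there was a single tissue and age. The libraries held 3422622 and 4538427 reads on the gene strand of microRNA genes, and levels are given as counts per 1000000 of these (CPM) and averaged over n = 2 pups, ± SD. The pups shared a litter, so the SD is the spread between 2 littermates. Levels were not corrected for differences in adapter ligation between sequences.

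MicroRNAs of this family are cut from hairpin precursors and loaded into Argonaute proteins, where bases 2 to 8 of the mature strand, the seed, pair with target messages and lower their output. The Mir30 family is conserved in vertebrates and its genes lie in pairs on different chromosomes. In the liver it is known for a role in the development of bile ducts in fish, and its members are known to act on messages of the epithelial to mesenchymal transition and, in the case of miR-30c, on the message of the lipid transfer protein Mttp.

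RefSeq sequences on GRCm38.p6 were matched for 4 of the 6 genes, namely Mir30a, Mir30e, Mir30c-1 and Mir30c-2. Their 5p arms are shown because the seed defines the family and the bases after it decide which gene a read can be assigned to. The seed is in capitals.
miR-30a-5p: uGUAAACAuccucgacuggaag
miR-30e-5p: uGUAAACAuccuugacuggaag
miR-30c-5p: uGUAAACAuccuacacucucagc
miR-384-5p: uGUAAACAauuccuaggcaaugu

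The 5p arms of these 4 Mir30 genes shared their first 12 bases. Counted from 1 at the 5′ end, miR-30a-5p and miR-30e-5p differed over 22 bases by the single substitution C13U. The sequence miR-30c-5p is the product of both Mir30c-1 and Mir30c-2. Among the genes with a matched sequence, Mir384 on chromosome X was the only other one to carry the seed GUAAACA, and it shared only the first 8 bases with them. Mir384 had 1 count in replicate 1 and 0 in replicate 2, where a count of 0 allows up to 0.661 CPM.

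The 3p arms separated the same genes into another pair of seeds, again in capitals.
miR-30a-3p: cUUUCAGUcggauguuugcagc
miR-30e-3p: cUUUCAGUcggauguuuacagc
miR-30c-1-3p: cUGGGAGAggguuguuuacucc
miR-30c-2-3p: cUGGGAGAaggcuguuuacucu

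The arms miR-30a-3p and miR-30e-3p differed by G18A. The arms miR-30c-1-3p and miR-30c-2-3p differed by 3 substitutions, G9A, U12C and C22U. A full read of a 3p arm can therefore tell Mir30c-1 from Mir30c-2, whereas a read of the shared 5p arm cannot. Each deposited count covers a whole hairpin, so the arms were not measured apart.

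The hairpins of Mir30c-1 and Mir30c-2 are shown because the stretch they share, in capitals, limits what their counts mean.
Mir30c-1: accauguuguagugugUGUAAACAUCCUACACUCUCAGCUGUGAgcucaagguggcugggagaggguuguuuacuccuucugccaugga
Mir30c-2: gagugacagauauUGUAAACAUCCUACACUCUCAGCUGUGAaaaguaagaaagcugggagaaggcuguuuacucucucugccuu

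The shared stretch ran for 28 bases, from position 17 to 44 of the Mir30c-1 hairpin and from 14 to 41 of the Mir30c-2 hairpin. It began at the first base of miR-30c-5p and went on past its 23 bases. A read that lies inside it matches both loci, and reads that mapped to several loci were tallied apart and assigned to no gene. Such reads numbered 1520712 in replicate 1 and 2044197 in replicate 2, or 25.2% and 24.7% of all reads, and the number of miR-30c-5p reads among them was not measured. The counts of Mir30c-1 and Mir30c-2 are therefore lower limits of an unknown tightness. Between Mir30a and Mir30e the longest shared stretch was 18 bases, all but 1 of them in the 3p arm, and neither of their mature arms was found at another microRNA locus.

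The 6 genes form 3 pairs. On chromosome 1, Mir30a (ENSMUSG00000065405.2, chr1:23272269-23272339, plus strand, mm10) and Mir30c-2 (ENSMUSG00000065567.1, chr1:23291701-23291784, plus strand) lie 19361 bases apart. Mir30a overlapped no other annotated gene, and Mir30c-2 lay wholly in an exon of the long non-coding RNA Gm27028. On chromosome 4, Mir30e (ENSMUSG00000065409.1, chr4:120772606-120772697, minus strand) and Mir30c-1 (ENSMUSG00000065490.1, chr4:120769534-120769622, minus strand) lie 2983 bases apart, both in introns of Nfyc, which encodes a subunit of the transcription factor NF-Y. On chromosome 15, Mir30d (ENSMUSG00000065437.1, chr15:68341208-68341289, minus strand) and Mir30b (ENSMUSG00000065476.2, chr15:68337415-68337510, minus strand) lie 3697 bases apart. Mir30d lay in an exon of the long non-coding RNA Gm20732, and Mir30b overlapped an exon of the transcript Gm26621 by 16 bases. These annotations are from GENCODE M21.

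Mir30a, Mir30e and Mir30d supplied nearly all uniquely mapped counts of the family in both livers, while Mir30b, Mir30c-2 and Mir30c-1 had far fewer. Reads of the 5p arm shared by Mir30c-1 and Mir30c-2 are counted at neither. Whether these 2 genes would still be low with such reads was not measured. In uniquely mapped counts alone, each pair held 1 abundant and 1 scarce gene, and both words are used in that sense below. The abundant genes made up 99.1% of the family's uniquely mapped counts in replicate 1 (exact 95% interval 99.0 to 99.1) and 98.7% in replicate 2 (98.7 to 98.8). This grouping was made after the levels were seen and is a description. Intervals throughout are exact, at 95%, and take in the counting error of reads alone. PCR copies of a read are not separate molecules, so the intervals may be too narrow for molecules.

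In pups 1 and 2 Mir30a stood at 16853 and 13734 CPM, with a mean of 15294 ± 2206 (SD, n = 2). Mir30e had 12839 and 10759 CPM, a mean of 11799 ± 1471. Mir30d had 4911 and 4340 CPM, a mean of 4625 ± 404. All 3 were lower in replicate 2, and the pups' values of each did not overlap those of the next gene in the order. The gap between Mir30a and Mir30e was nevertheless smaller than the sum of their SDs. Within a pup the order was steadier, because Mir30a was 1.31 times Mir30e in replicate 1 and 1.28 times in replicate 2. Per hairpin length, 71 bases for Mir30a and 92 for Mir30e, this ratio was 1.68 ± 0.0331. Inserts were shorter than either hairpin, and whether hairpin length bears on any count was not tested.

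Mir30b stood at 197 and 212 CPM in the livers of pups 1 and 2, from 675 and 961 counts, with a mean of 204 ± 10.3. Mir30c-2 had 87.9 and 117 CPM, from 301 and 532 counts, a mean of 103 ± 20.7. Mir30c-1 was the lowest member, with 41.2 and 44.7 CPM from 141 and 203 counts, a mean of 43.0 ± 2.5. These 3 genes were all higher in replicate 2, and their values did not overlap one another. Mir30c-2 exceeded Mir30c-1 by 2.13-fold in replicate 1 (1.74 to 2.63) and 2.62-fold in replicate 2 (2.23 to 3.1), with per-length ratios of 2.26 and 2.78. These ratios describe only reads that map to a single locus, and which gene makes more miR-30c-5p was not measured. Of the 15 pairs of members, Mir30a and Mir30e were the only one whose gap did not exceed the sum of the SDs.

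**Figure D1:**
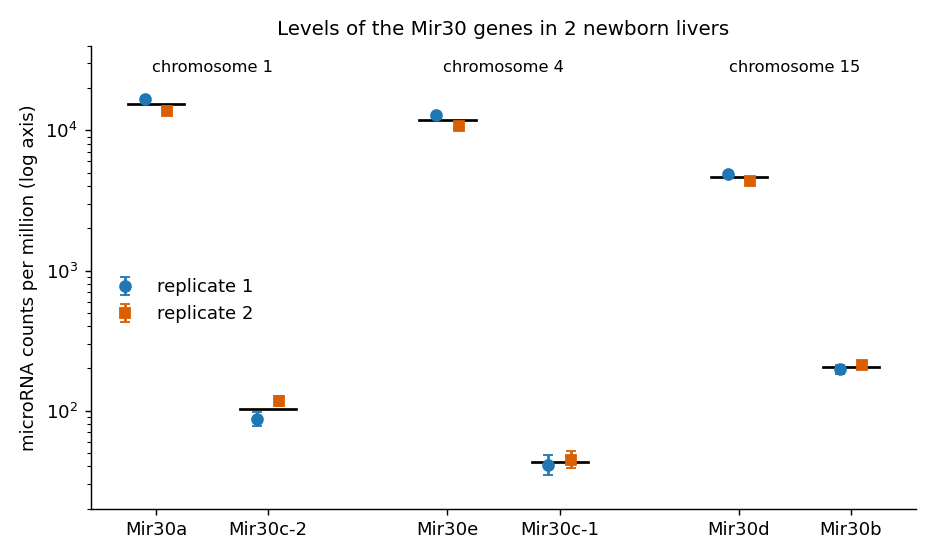
Levels of the 6 Mir30 genes in CPM on a log axis, grouped by chromosome, with circles for replicate 1, squares for replicate 2, bars for exact 95% counting intervals and a line at the mean. Mir30a, Mir30e and Mir30d sit between 4340 and 16853 CPM and their partners between 41.2 and 212 CPM. Reads of miR-30c-5p that fit both Mir30c loci are not counted.

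By rank among all 1973 genes, Mir30a was 12th by mean level, Mir30e 17th and Mir30d 31st, against 146th for Mir30b, 181st for Mir30c-2 and 207th for Mir30c-1. Mir30a stood between Mirlet7i (15528 ± 1492 CPM) and Mir322 (14275 ± 339 CPM), and it was not separated from either. Mir30e stood between Mir431 (11840 ± 1440 CPM) and Mir130a (11637 ± 1297 CPM), again closer than the SDs. Mir30d lay between Mir139 (5621 ± 131 CPM) and Mir429 (4491 ± 130 CPM), and it was below Mir139 in both pups. Its values overlapped those of Mir429. The scarce members had neighbours at almost the same level, Mir668 and Mir500 around Mir30b, Mir493 and Mir20b around Mir30c-2, and Mir26a-2 and Mir294 around Mir30c-1.

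No read fell on the opposite strand of any member. All 6 genes had 0 opposite-strand counts in both libraries, and their counts without regard to strand equalled those on the gene strand. This includes the Mir30e hairpin, whose opposite strand GENCODE M21 annotates as Mir30f. The limits that a count of 0 allows were 0.877 and 0.661 CPM for pups 1 and 2.

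The next question was how the genes of each pair compared. In each of the 3 pairs the same gene was the higher one in both livers, and the ratio ran from 20.5 at chromosome 15 to 312 at chromosome 4. Since both genes of a pair were read in the same library, these ratios do not depend on the library total. They count only reads that map to a single locus. On chromosomes 1 and 4 the lower gene is a Mir30c gene without its miR-30c-5p reads, so these ratios may be too high. Compared per hairpin length, the mean ratios were 183 for chromosome 1, 267 for chromosome 4 and 26.6 for chromosome 15.

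On chromosome 1, Mir30a had 57683 counts against 301 for Mir30c-2 in replicate 1, a ratio of 192 (exact 95% interval 171 to 215). In replicate 2 the counts were 62329 and 532, a ratio of 117 (108 to 128). The intervals did not overlap, and the ratio was 1.64 times larger in replicate 1. The mean ratio of 154 ± 52.7 therefore describes neither pup closely.

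On chromosome 4, Mir30e had 43943 counts against 141 for Mir30c-1 in replicate 1, a ratio of 312 (264 to 370). In replicate 2 the counts were 48827 and 203, a ratio of 241 (210 to 277). Here the intervals overlapped, and the ratio was 1.30 times larger in replicate 1. Overlap of separate intervals is no test of this difference, which was not tested. The ratio averaged 276 ± 50.3.

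On chromosome 15, Mir30d had 16809 counts against 675 for Mir30b in replicate 1, a ratio of 24.9 (23.1 to 26.9). In replicate 2 the counts were 19695 and 961, a ratio of 20.5 (19.2 to 21.9). The intervals did not overlap, and the mean was 22.7 ± 3.12. By uniquely mapped counts this was the most even of the 3 pairs in both livers, and the only one whose scarce gene is not a Mir30c copy. The ratios of chromosomes 1 and 4 were taken over a Mir30c gene, for which reads of miR-30c-5p that fit both loci are not counted. The order of the pairs with such reads included was not measured.

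**Figure D2:**
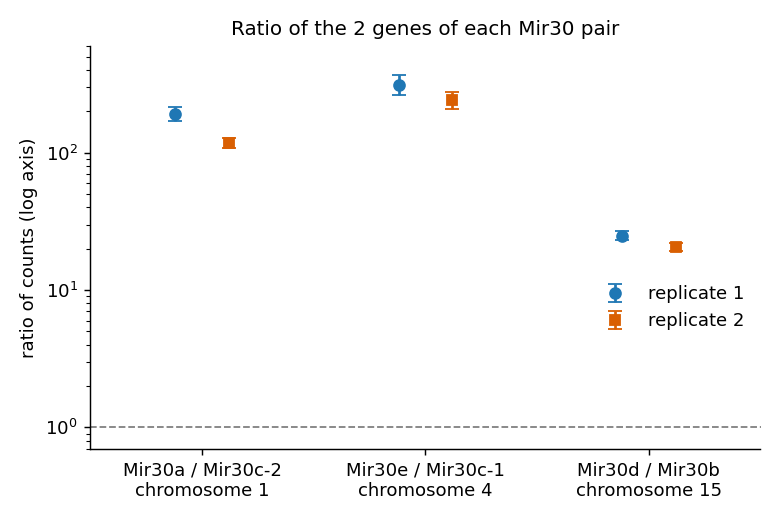
Ratio of counts of the higher to the lower gene of each pair on a log axis, with exact 95% intervals, circles for replicate 1 and squares for replicate 2. All ratios lie far above the dashed line at 1, with 20.5 to 24.9 on chromosome 15 and 117 to 312 on chromosomes 1 and 4. On chromosomes 1 and 4 reads of miR-30c-5p that fit both Mir30c loci are not counted.

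The 3 loci contributed unequally. In pups 1 and 2, chromosome 1 supplied 48.5% and 47.4% of the family's counts, averaging 48.0% ± 0.761. Chromosome 4 supplied 36.9% and 37.0%, a mean of 36.9% ± 0.0823. Chromosome 15 supplied 14.6% and 15.6%, a mean of 15.1% ± 0.678. The order of the loci was the same in both pups, and the gaps between loci were many times the spread. The exact intervals of the pups overlapped for chromosome 4 only. Reads of miR-30c-5p, which could belong to chromosome 1 or 4, are missing from these shares.

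The family as a whole took 3.49% of the microRNA counts in replicate 1 (3.47 to 3.51) and 2.92% in replicate 2 (2.91 to 2.94). The 10 let-7 genes analysed, of 12 listed, took 6.85% and 7.10%, the Mir26 family 4.12% and 3.70%, and the Mir29 family 0.0832% and 0.0727%. These families are shown because they too are spread over several loci with copies of a mature sequence. Uniquely mapped Mir30 counts were divided among more genes than those of Mir26 or Mir29. Mir30a had 48.2% and 47.0% of its family, against 99.9% for Mir26b and 87.3% and 87.6% for Mir29a in theirs. In let-7 the leading gene Mirlet7g took 60.5% and 57.9%. By the effective number of genes, the exponential of the Shannon entropy of their shares, let-7 was spread more widely (3.27 and 3.35) than Mir30 (2.85 and 2.93). All these values rest on reads that map to a single locus. Each of these families has genes with an arm that also stands at another locus, and reads that fit both loci are assigned to no gene. How far such reads would change the shares and their order was not measured.

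In the Mir30, Mir26 and Mir29 families, each gene with a mature sequence that also stood in the hairpin of another locus was below every gene without one. This was read from the levels after they were seen and has no test. In the Mir30 family both such genes, Mir30c-1 and Mir30c-2, had 43.0 and 103 CPM, and the genes with sequences found nowhere else, Mir30a and Mir30e, had 15294 and 11799 CPM. In the Mir26 family Mir26a-1 and Mir26a-2 had 9.78 and 43.6 CPM against 39047 CPM for Mir26b. In the Mir29 family Mir29b-1 and Mir29b-2 had 5.49 and 1.54 CPM, against 682 CPM for Mir29a and 91.2 CPM for Mir29c. In let-7 the groups overlapped, with 39.3 to 1822 CPM for 4 genes with a shared arm and 124 to 41287 CPM for 6 without one. For the lowest of these 6, Mirlet7a-2, only 1 arm was listed, so a copy of an unlisted arm would be missed and its class is uncertain. The next lowest, Mirlet7b at 1024 CPM, had 2 arms listed and still lay below Mirlet7f-2, the highest gene with a shared arm. The part of uncounted multi-locus reads in these levels was not tested. Mir30b and Mir30d were outside this comparison.

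**Figure D3:**
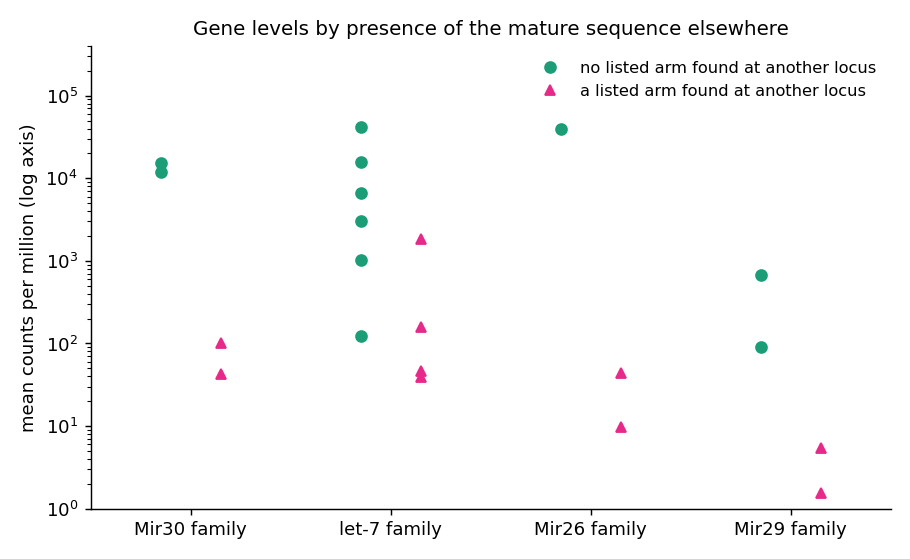
Mean level of each gene in CPM on a log axis for 4 families, with circles for genes whose listed mature arms were found at no other locus and triangles for genes with an arm found elsewhere. In the Mir30 family the circles lie at 11799 and 15294 CPM and the triangles at 43.0 and 103 CPM, and in let-7 the groups overlap.

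Each gene was then compared between pup 1 and pup 2. Mir30a, Mir30e and Mir30d were lower in replicate 2 and Mir30c-2 was higher, while the small differences of Mir30b and Mir30c-1 did not pass the test. The exact binomial test, two-sided and given the gene's sum over both libraries, was used with Benjamini-Hochberg adjustment over 390 genes. It compares 2 libraries against counting error and says nothing of a condition. With this test 30.3% of all genes tested were called, 15.9% higher and 14.4% lower in replicate 2, against 4 called members out of 6, of which 1 was higher and 3 were lower. Among the 76 genes with at least 1000 CPM in both libraries, 46.1% were called lower, and the 3 abundant members belong to this group.

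Mir30a differed by a log2 ratio of -0.30 (exact 95% interval -0.31 to -0.28), a level 1.23 times higher in replicate 1, with an adjusted p of 8.53e-272 in the exact binomial test. Mir30e had a log2 ratio of -0.26 (-0.27 to -0.24) and Mir30d one of -0.18 (-0.21 to -0.15). Mir30c-2 had a log2 ratio of 0.41 (0.21 to 0.62), with an adjusted p of 3.41e-04 in the same exact test. The interval of Mir30b ran from -0.04 to 0.25 and that of Mir30c-1 from -0.20 to 0.44. The abundant members thus lay on one side of 0 and the uniquely mapped counts of Mir30c-2 on the other. The family's median of -0.04 shows neither. Reads of miR-30c-5p that fit both Mir30c loci are not counted, so how miR-30c-5p differed between the pups was not measured. Over all genes tested the median was 0.00.

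None of the 6 members was called once the variation between littermates entered the error. The exact negative binomial test of edgeR, its common dispersion estimated from both pups, gave each of the 6 an adjusted p of 1 and called 0.513% of the 390 genes, or 2 genes. At an unadjusted p under 0.05 it found 12 genes. The test sets 1 library against 1, with its dispersion taken from the same pups, so a missed call does not show that a gene was alike in both.

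Among the 76 genes with at least 1000 CPM in both libraries, Mir30a had the 5th lowest log2 ratio, Mir30e the 9th and Mir30d the 14th. The median of that group was -0.02. The genes with the log2 ratio nearest to that of Mir30a, among the other 75 and over 2 libraries only, were Mir107 (-0.29), Mir425 (-0.30) and Mir93 (-0.30). Those nearest to Mir30e were Mir21a (-0.26), Mir16-1 (-0.26) and Mir451a (-0.23), and those nearest to Mir30d were Mir335 (-0.18), Mir376c (-0.17) and Mir130b (-0.16). With a single ratio per gene, this likeness is a description.

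**Figure D4:**
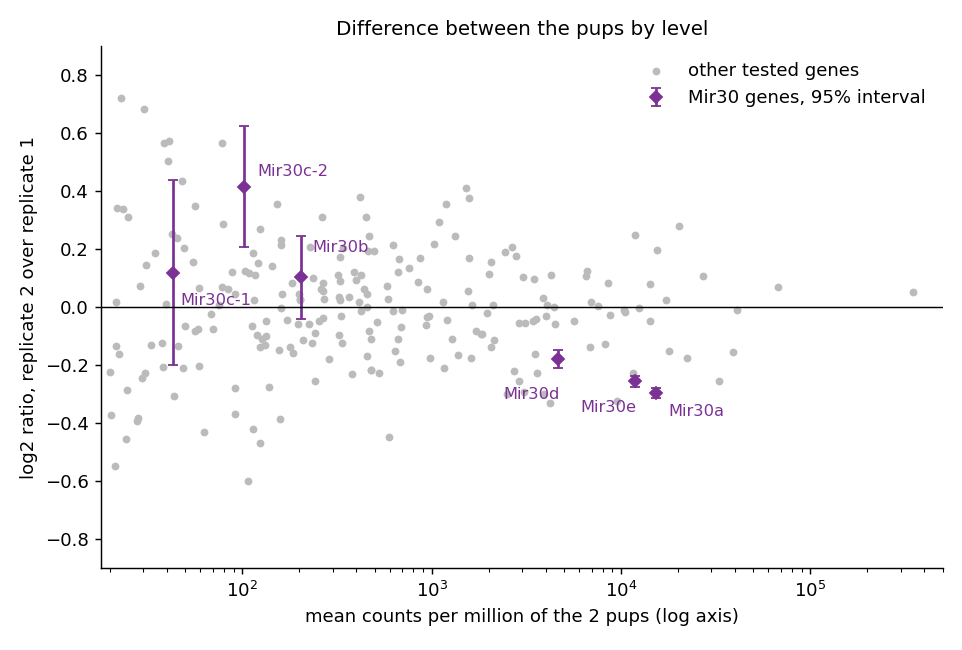
Log2 ratio of replicate 2 over replicate 1 against mean CPM on a log axis, for the 235 tested genes with a mean of at least 20 CPM, with Mir30 genes as diamonds with exact 95% intervals. Mir30a, Mir30e and Mir30d lie below 0 and Mir30c-2 above it, and 1 gene, Mir206, falls beyond the axis. Reads of miR-30c-5p that fit both Mir30c loci are not counted.

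Marker microRNAs of other cell types were set beside this comparison. The hepatocyte markers Mir122, Mir192, Mir194-2 and Mir148a summed to 357774 CPM in replicate 1 and 369431 in replicate 2, and Mir122 alone made up 342309 and 354940 CPM. Mir126a, of endothelial cells, had 65978 and 69174 CPM. The 5 mesenchymal markers summed to 14991 and 15784 CPM, the 5 epithelial markers to 6841 and 6653, and the 3 erythroid markers to 5309 and 5150. Within the erythroid list Mir451a was lower in replicate 2 (3877 to 3310 CPM) and Mir144 higher (1374 to 1786 CPM), both called by the exact binomial test. The 3 leukocyte markers summed to 8723 and 8010 CPM, while Mir142 was not analysed here. The 4 pancreatic markers summed to 1953 and 2121 CPM, nearly all of it Mir375. The 5 muscle markers analysed summed to 136 and 1008 CPM, nearly all of it Mir206, which also passed the negative binomial test, with Mir1a-1, Mir133a-1 and Mir133a-2 at 0 counts. The 6 neural markers analysed summed to 85.0 and 92.1 CPM, nearly all of it Mir128-1, with all 3 Mir124a genes and Mir9-2 at 0 counts. Both listed arms of Mir9-2 also stood at another locus, so its reads would go uncounted as those of miR-30c-5p do. For the Mir124a and Mir133a genes no arm was matched, and for Mir1a-1 only 1 arm was listed. The zeros of these genes are not read as a lack of these microRNAs. The log2 ratio of replicate 2 over replicate 1 was -0.26 for the Mir30 sum, -0.12 for the leukocyte sum, -0.04 for the erythroid sum, 0.05 for the hepatocyte sum and 2.89 for the muscle sum. The hepatocyte sum followed Mir122 (0.05), while the other 3 hepatocyte markers were called lower by the exact binomial test. The median log2 ratio of the 4 was -0.09. Among the leukocyte markers Mir223 was called lower (-0.13) and Mir150 higher (0.44), and Mir155 was not called. The part of these cells in the Mir30 values was not tested. In whole tissue, fewer cells of a type and less RNA per cell cannot be told apart.

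Other microRNAs known from liver and bile duct cell differentiation were given the same test. Of the 12 genes listed, 11 were tested, and 2 rose and 5 fell in replicate 2. Mir24-1 was not analysed here. These counts stand against 15.9% higher and 14.4% lower over all 390 genes, and 46.1% lower among the 76 genes over 1000 CPM. Those that rose were Mir122, the abundant hepatocyte microRNA, with a log2 ratio of 0.05, and Mir27b, with 0.17. Those that fell were Mir194-2 (-0.22), Mir29a (-0.19), Mir148a (-0.16), Mir101b (-0.15) and Mir192 (-0.03). The median over the 11 was -0.13, against -0.04 over the 6 Mir30 genes and 0.00 over all genes tested. None of the 11 was called by the negative binomial test of edgeR, which called 2 of all 390 genes and 12 at an unadjusted p under 0.05.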

How the data were processed

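The authors deposited 1 table per library of gene quantifications on mm10 with GENCODE M4 annotation, per the text deposited with the files, and its whole-number values are raw read counts. The aligner, counter and trimming were not stated there. The columns have no header, and the gene-strand column was recognised from its values. Of the uniquely mapped reads, 91.1% and 90.1% were on the gene strand; the 333144 and 499994 other uniquely mapped reads stayed out of totals and tests. Symbols and places came from GENCODE M21, which named 1894 of 1973 genes; the other 79 held 0 counts. An arm was called shared where its sequence stood, on either strand, in a hairpin of a locus that does not overlap its own.

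Intervals are exact (Clopper-Pearson) at 95%, and a count of 0 is limited by 3 counts of the total. Genes summing to 10 or more counts across the pups were tested at an adjusted p of 0.05. With 1 group of 2 pups no quasi-likelihood test of edgeR was possible, and the negative binomial test of edgeR 4.0.16 and size factors of DESeq2 1.42.0 were alternatives, beside Python 3.11.15 and SciPy 1.17.1. Both tests were run on simulated data drawn under their own assumptions, which does not show that these assumptions hold for these libraries. Named genes were the members, seed-sharing genes, rank neighbours, the 3 genes nearest in log2 ratio to each member over 1000 CPM, and the leading or listed genes of the comparison and marker lists. Members and lists were chosen with earlier results of these data known, and the background of genes over 1000 CPM and the shared arms were added after the data were seen.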

Additional observations from a re-analysis of the deposited data

How the results depend on the processing

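No log2 ratio of a member changed sign under the alternatives tried. TMM and DESeq2 factors shifted every log2 ratio by only 0.004 and -0.002, so a change of sign could hardly occur. Levels, shares and pair ratios were not scored for a reversal, so its absence does not bear on their stability. Leaving Mir122 out of the total raised every level by construction, to 23458 CPM for Mir30a, 18100 for Mir30e, 7097 for Mir30d, 314 for Mir30b, 158 for Mir30c-2 and 66.0 for Mir30c-1, and the family share to 4.92%. With all uniquely mapped reads as the total, every level fell by construction. Mir30a, Mir30e and Mir30d were then at 13865, 10696 and 4192 CPM, and Mir30b, Mir30c-2 and Mir30c-1 at 185, 92.9 and 38.9 CPM. The ratio of Mir30d to Mir30b per hairpin length was 26.6. Counts without regard to strand, Mir122 left out, TMM factors, DESeq2 size factors and other filters on low counts changed no call of a member, with log2 ratios of -0.30 to -0.27 for Mir30a and 0.41 to 0.44 for Mir30c-2. The number of genes called was 112 to 123 under these, and 2 under the negative binomial test of edgeR, where Mir30a (-0.30), Mir30e (-0.26), Mir30d (-0.18) and Mir30c-2 (0.41) kept their log2 ratios and lost their calls. That test takes the spread between the pups as noise. With 2 pups, either alone lies within 1 SD of the mean by construction, and ratios and shares within the family cannot change with the strand setting, so neither bears on stability. With either pup alone, the values are those given for each replicate, so levels ran from 13734 to 16853 CPM for Mir30a and from 87.9 to 117 CPM for Mir30c-2, and the family share from 2.92% to 3.49%. No paired analysis was possible because there is a single group. Among the members, depth limits the scarce genes most, with 141 to 961 counts per library. For Mir30c-1 and Mir30c-2 the uncounted reads of their shared stretch are a separate limit, which depth does not remove.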

Other observations

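Copied mature sequences were looked for across the whole table, after the data were seen. Of 916 genes of the table with a mature sequence in RefSeq, 85 had an arm that also stood in the hairpin of another locus. Of these, 35 (41.2%) had at least 10 counts in both libraries, with a median of 43.6 CPM, and 4 (4.71%) averaged 1000 CPM or more. Of the 831 genes with no such arm among those listed, 251 (30.2%) had at least 10 counts in both libraries, with a median of 209 CPM. In this class 70 genes (8.42%) averaged 1000 CPM or more. Genes at a copied sequence held 1.20% of all microRNA counts, averaged over the pups, and the 831 genes held 61.4%. The remaining counts lay on genes without a matched sequence, which were in neither class. Reads that fit more than 1 locus are assigned to no gene, so the values at copied sequences leave such reads out. Their part in the lower median was not tested, and these values do not give the level of a copied microRNA. Mir30c-2 was above the median of its class at 103 CPM and Mir30c-1 was just below it at 43.0 CPM. These are values of 2 libraries without a test.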
